A study of Mus musculus with 12 samples.

Results

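Messenger RNA of T_Y88A mouse embryos was compared between Theiler stage TS13 and Theiler stage TS12, the earlier of the 2, in cells sorted for T. Genes whose mean reached 1 FPKM (fragments per kilobase of gene model, scaled to the library's mapped fragments) over both libraries were taken, which kept 11127 of 23421 gene symbols. Small RNA genes (70 of the 11127) were set aside, so that 11057 genes are described. Each stage had 1 library, with no replicate, so sizes of difference are given and nothing was tested. Differences are log2(FPKM + 1) at TS13 minus the same at TS12. A positive value is higher at TS13, and genes at low levels are drawn towards 0 by the added 1.

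The study sequenced RNA of flow-sorted T-positive cells and profiled chromatin in cultured early mesoderm, in animals and cells that carry the T_Y88A allele and in controls. Both libraries compared here came from embryos of strain background 129S2/C57Bl6J and genotype T_Y88A (mutant), 1 staged as TS12 and 1 as TS13. A further embryo library, of the same background and sort, carries the label wild type and pools TS12 with TS13. The series' design text equates wild type with T_het, and the labels do not give the second allele of any embryo, the number of embryos or litters pooled, or how T was detected in the sort. Because this library mixes the stages, its levels are given as context, as the pooled library, and not as a control for stage.

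T (Brachyury) is the founding T-box factor and is made in the primitive streak, the tail bud and the notochord, and Y88A is an amino acid substitution in its protein. In the streak and tail bud, WNT and FGF signals keep a pool of caudal progenitors that express T, and progeny of these cells enter either the presomitic mesoderm, through Tbx6 and Msgn1, or the neural tube, through Sox2. Without T function, posterior mesoderm fails and the body axis ends early. TS12 and TS13 are stages of early somite formation.

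The stages were alike over most genes. Across the 11057 genes, log2(FPKM + 1) had a Pearson r of 0.986 between the libraries (across genes, which are not replicates), and 92.0% of genes lay within 0.5 of each other on the log2 scale. The median difference was -0.01 and the SD across genes 0.31. In all 5326 genes (48.2%) stood higher at TS13 and 5731 (51.8%) lower. At least 2-fold higher were 49 genes (0.443%) and at least 2-fold lower were 65 genes (0.588%). Of these, 26 and 35 had a mean under 5 FPKM, where libraries scatter more: the central 95% of genes ran from -0.76 to 0.73 at 1 to 5 FPKM and from -0.41 to 0.34 at 100 FPKM or more. From the steps between values below 0.06 FPKM, the TS13 library was 1.29 times as deep as the TS12 library, a ratio shared by 47 of 351 low genes. Absolute depth is unknown. Genes just inside the filter, with a mean of 1 to 1.1 FPKM, had differences from -1.64 to 1.17 (158 genes), and those just outside it, from 0.9 FPKM, from -1.38 to 1.001 (162 genes).

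**Figure D1:**
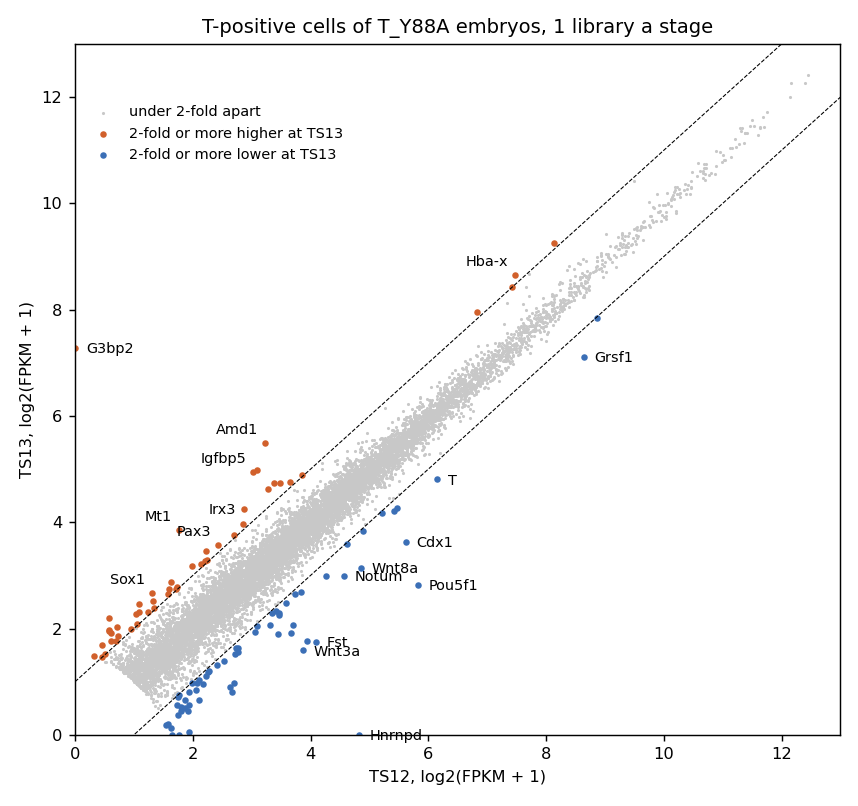
Log2(FPKM + 1) of 11057 genes at TS12 (x axis) and TS13 (y axis) in T-positive cells of T_Y88A embryos, 1 library each. Dashed lines mark 2-fold; the 49 genes above them are orange, the 65 below blue, and G3bp2 and Hnrnpd lie on an axis because they are listed at 0 in 1 library.

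The sorted cells carried the caudal signature their label implies, with globin RNA beside it. T stood at 69.8 FPKM at TS12 and 26.99 at TS13, Nkx1-2 at 91.9 and 58.7, and Cdx2 at 101 and 72.3. Markers of the nascent streak were near 0: Mixl1 had 0.167 and 0.0973 FPKM and Eomes 0.0523 and 0.113. Of 17 presomitic genes 11 passed the filter and 6, Mesp1 and Mesp2 among them, lay below it. Msgn1 stood at 3.48 and 2.71 FPKM, Cited1 at 42.8 and 30.9, Rspo3 at 13.5 and 8.11 and Dll1 at 10.8 and 7.79. Sox2, a member of both the neural and the pluripotency lists, stood at 30.7 and 41.4 FPKM, and the neural gene Sox1 at 1.47 and 5.37 FPKM. The embryonic globin Hbb-bh1 stood at 716 and 1372 FPKM. Notochord and node genes were near the floor, with Noto at 0 in both libraries and Foxa2 at 0.704 and 0.128 FPKM. In bulk RNA, fewer cells of a type and less RNA per cell cannot be told apart, and this applies to each list that follows.

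Genes of the streak and caudal epiblast stood mostly lower at TS13, with Fst, Wnt3a, Cdx1, Sp5, Wnt8a, Fgf4, T and Fgf8, in this order, at least 2-fold lower. Of 24 genes in this list 21 passed the filter, and 8 of the 21 were at least 2-fold lower and 0 at least 2-fold higher, where 0.588% and 0.443% of all genes were. By any amount 15 stood lower and 6 higher, where 51.8% and 48.2% of all genes did. The list median was -0.64 and the median of all genes -0.01. The shares of all genes also apply to each list that follows. The list was chosen with earlier results of these data known, so these shares are descriptions. Fgf4, at 2.08 FPKM at TS12 and 0.0980 at TS13, passed the filter only through TS12. T (chr17:8434423-8442496) had a difference of -1.34 and was 2.59 times higher at TS12. In the pooled library it was 65.9 FPKM, close to TS12, so TS13 was the lowest of the 3 embryo libraries. T was also the gene used for the sort, so its level is not independent of how cells were chosen.

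Among the ligands, Wnt3a (chr11:59248036-59290751), which maintains caudal progenitors and presomitic mesoderm, stood at 13.6 FPKM at TS12 and 2.02 at TS13, with 12.1 in the pooled library. This was a difference of -2.28, a ratio of 6.75, and only 3 of the 11057 genes had a lower one. Wnt8a stood at 27.9 and 7.84 FPKM (-1.71), and Wnt5b at 39.2 and 21.0 FPKM (-0.87). Wnt5a, a ligand of the non-canonical branch that directs tail bud outgrowth, went the other way, from 23.7 FPKM at TS12 to 39.6 at TS13 (0.72). The WNT ligands of the streak did not share 1 direction. Fgf8, which with Fgf4 holds presomitic and caudal cells undifferentiated, stood at 9.99 and 3.78 FPKM (-1.20), and Fgf4 at 2.08 and 0.0980 FPKM (-1.49). Fgf17, of the same subfamily as Fgf8, differed little, at 11.9 and 10.1 FPKM (-0.21). Fst, which encodes the activin and BMP antagonist follistatin, had the largest difference of the list, with 16.1 FPKM at TS12, 2.36 at TS13 and 8.46 in the pooled library (-2.35).

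The transcription factors of the caudal progenitors were graded. Cdx1, a caudal homeobox gene and direct WNT target, stood at 47.9 FPKM at TS12 and 11.4 at TS13 (-1.98), and at 9.97 in the pooled library. Its paralogs differed much less, Cdx2 with a difference of -0.48 and Cdx4 (102 and 79.9 FPKM) with -0.35. Sp5, a zinc finger factor induced by WNT and T, stood at 11.7 and 2.79 FPKM (-1.75), whereas its relative Sp8 stood at 20.8 and 22.5 FPKM (0.11). Evx1, a homeobox gene of the posterior streak, had a difference of -0.69 and Nkx1-2, a marker of the caudal lateral epiblast, of -0.64. Genes against the direction of the list were Cyp26a1 (4.08 and 4.38 FPKM), the enzyme that clears retinoic acid from the tail bud, Sall4 (52.0 and 56.9), Greb1 (29.5 and 39.2) and Grhl3 (6.87 and 10.5, a difference of 0.55). Cdx2, Cdx4 and Nkx1-2 were above 55 FPKM at both stages, so these caudal progenitor genes remained abundant at TS13.

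**Figure D2:**
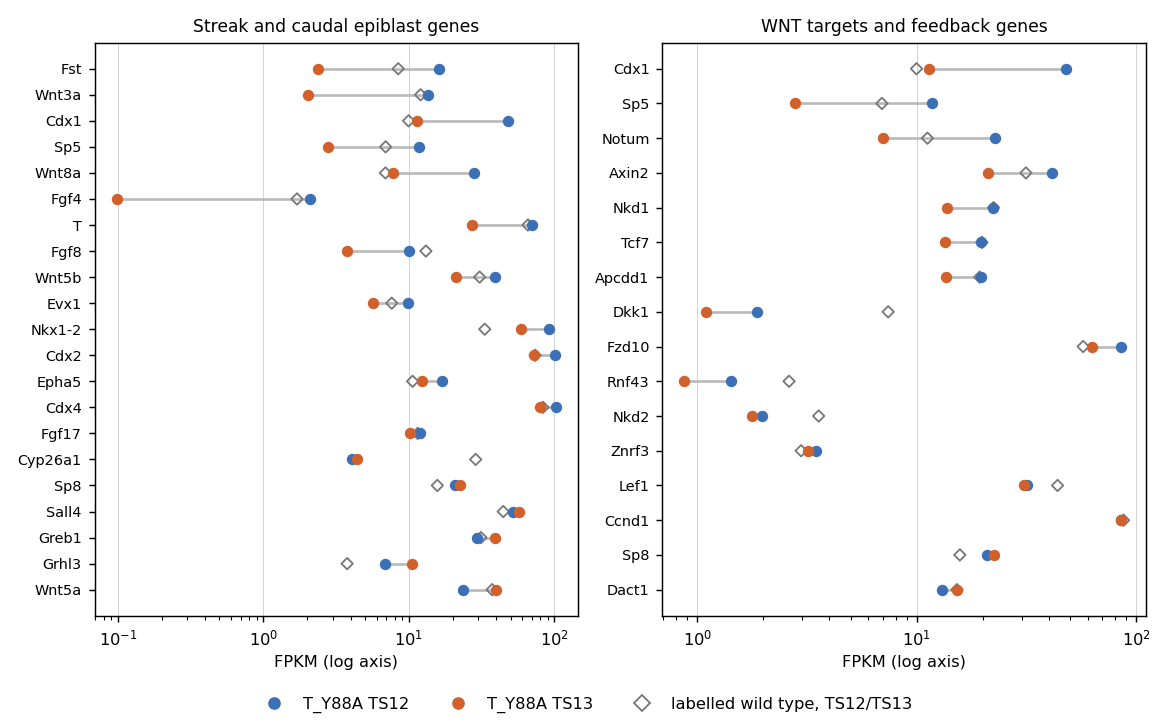
FPKM (log axis) of the 21 streak and caudal epiblast genes (left) and 16 WNT target genes (right) above the filter at TS12 (blue) and TS13 (orange) of T_Y88A embryos, with the pooled library as an open diamond. 15 genes on the left and 14 on the right stood lower at TS13, Fst and Cdx1 by the most.

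Transcriptional targets and feedback inhibitors of WNT signalling stood mostly lower at TS13. Of 18 such genes 16 were measured, and 3 were at least 2-fold lower and 0 higher. By any amount 14 stood lower (median -0.44), where 51.8% of all genes did. Cdx1 and Sp5 belong to this list too. The third was Notum, a secreted enzyme that inactivates WNT proteins, at 22.7 FPKM at TS12 and 6.98 at TS13 (-1.57). Axin2, the most general feedback target of beta-catenin, stood at 41.4 and 21.0 FPKM (-0.95), with 31.4 in the pooled library. Nkd1, an intracellular inhibitor, stood at 22.3 and 13.8 FPKM (-0.66). The nuclear mediators were split: Tcf7 stood at 19.5 and 13.4 FPKM (-0.51), and Lef1 at 31.8 and 30.9 FPKM (-0.04). Dact1, at 12.99 and 15.3 FPKM, and Sp8 were the 2 that stood higher, and Ccnd1 (85.4 and 85.1 FPKM) was equal to within its scale: it turned to the higher side once the libraries were centred on their median or quantile-normalised.

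The promoters of Sp5 and T are shown because both genes belong to the group that stood lower at TS13 and both carry the core letters of the TCF/LEF site, CTTTGA, through which beta-catenin acts. The windows are the 250 bases before the RefSeq start, on the plus strand of GRCm38.p6 (mm10), and capitals mark CTTTGA or its reverse complement. Sp5 lies at chr2:70474673-70474922, with sites beginning 204 and 104 bases before the start, and T at chr17:8434173-8434422, with 1 site 234 bases before the start on the minus strand.
Sp5: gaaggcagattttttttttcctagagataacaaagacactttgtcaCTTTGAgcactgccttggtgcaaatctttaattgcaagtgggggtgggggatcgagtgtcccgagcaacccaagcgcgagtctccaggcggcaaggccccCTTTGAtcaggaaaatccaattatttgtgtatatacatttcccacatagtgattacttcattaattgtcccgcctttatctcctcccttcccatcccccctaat
T: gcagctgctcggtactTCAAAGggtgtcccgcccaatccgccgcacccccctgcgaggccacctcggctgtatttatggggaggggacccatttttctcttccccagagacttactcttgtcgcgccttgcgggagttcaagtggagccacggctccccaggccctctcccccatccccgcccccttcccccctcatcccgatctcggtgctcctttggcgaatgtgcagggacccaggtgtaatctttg
Searched on both strands, CTTTGA occurred in 5 of 14 streak and caudal epiblast promoters (T, Wnt5b, Sp5, Sp8 and Grhl3), in 4 of 11 WNT target promoters (Lef1, Dkk1, Sp5 and Sp8) and in 12.3% of the 8811 promoters of described genes. The 5 streak genes that hold it include 3 that stood lower at TS13 and 2 (Sp8 and Grhl3) that stood higher. The longer form CTTTGATC occurred in Wnt5b and Sp5 and in 0.738% of all promoters. The T-box half-site AGGTGTGA occurred in 0 of the 14 streak and 0 of the 9 presomitic promoters and in 0.738% of all, and its shorter core AGGTGT, which lies inside it, in 5 of the 14 (T, Cdx4, Wnt5b, Evx1 and Cyp26a1), 0 of the 9 and 10.7% of all. These are matches of letters in 1 window per start. A promoter sequence was at hand for 14 of the 21 measured streak genes, 9 of 11 presomitic and 11 of 16 WNT target genes. Sp5 and Sp8 count in both the streak and the WNT target shares.

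FGF target and feedback genes had no shared direction. Of 19 measured genes, 2 were at least 2-fold lower and 0 higher, 11 stood lower by any amount and 8 higher, and the median was -0.06. Under Fgf8, the second past 2-fold was Etv4, an ETS factor induced by FGF, at 23.5 FPKM at TS12 and 10.99 at TS13 (-1.03). Fgf15 stood at 4.92 and 2.42 FPKM (-0.79), and Spry4, a feedback inhibitor, had a difference of -0.57. Dusp6, the phosphatase that dampens ERK and a standard readout of FGF activity, stood at 32.3 and 34.6 FPKM (0.10). Spry1 was on the other side at 8.05 and 11.3 FPKM (0.44). Quantile normalisation turned Dusp4 and Il17rd to the higher side, which made the split 10 higher and 9 lower. Fgf3, named here after its values were seen, stood at 5.18 FPKM at TS12 and 0.871 at TS13 (-1.72).

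Pou5f1 was the gene with the largest difference among those above 0 in both libraries. Pou5f1 (chr17:35506032-35510777), which encodes OCT4, the pluripotency factor that persists in the caudal epiblast until early somite stages, stood at 55.7 FPKM at TS12, 6.07 at TS13 and 24.3 in the pooled library. This was a ratio of 9.17 and a difference of -3.002. Of 21 pluripotency and primed epiblast genes 9 were measured, and 1 was at least 2-fold lower. By any amount 6 stood lower and 3 higher (median -0.40), where 51.8% of all genes stood lower. Nanog stood at 4.77 and 3.38 FPKM (-0.40), Dnmt3b, the methyltransferase of the epiblast, at 40.1 and 29.0 FPKM (-0.45) and Lin28a, an RNA-binding protein that blocks let-7 maturation, at 425 and 328 FPKM (-0.37). Sox2, shared with the neural list, stood higher (0.42). Utf1 and Tdgf1 were listed at 0 in all 3 embryo libraries. Otx2 (0.0370 FPKM) and Nodal (0.137 FPKM) were already near the floor at TS12 and at 0 at TS13. Germ cell genes, which share Pou5f1 expression, gave 2 of 6 measured members higher and 4 lower (median -0.38): Dppa3 stood at 4.01 and 2.30 FPKM and Alpl at 16.2 and 10.2 FPKM.

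Foxh1, the DNA-binding partner of SMAD proteins in NODAL signalling, was outside the lists and among the 15 genes furthest below TS12, at 9.94 and 2.74 FPKM (-1.55). Rxrg and Vrtn, named after their values were seen, had differences of -1.86 and -1.44.

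Neural plate and neural tube genes stood higher at TS13. Of 33 such genes 20 were measured: 4 were at least 2-fold higher and 1 at least 2-fold lower, 15 stood higher by any amount and 5 lower, and the median was 0.58 (0.17 with no filter, over 30 genes). Of all genes 0.443% were at least 2-fold higher, 0.588% at least 2-fold lower and 48.2% higher by any amount. Within the list, Sox1 stood higher by the most. Sox1, a marker of committed neural cells, stood at 1.47 FPKM at TS12 and 5.37 at TS13, and at 0.232 in the pooled library (1.37). Sox3 stood at 2.28 and 5.67 FPKM (1.02) and Sox2 at 30.7 and 41.4 FPKM (0.42). All 3 were highest at TS13 and lowest in the pooled library.

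Several regional factors of the neural tube stood higher as well. Pax3, of the dorsal neural tube and also of the dermomyotome, stood at 4.40 FPKM at TS12 and 10.8 at TS13 (1.13), and Irx3, of the intermediate neural tube, at 6.23 and 14.7 FPKM (1.12). Pax6 stood at 2.92 and 5.7996 FPKM (0.80), Zic2 at 10.2 and 17.7 FPKM (0.73) and Irx1 at 0.896 and 2.58 FPKM (0.92). The adhesion genes of neuroepithelium, Ncam1 (26.9 and 43.9 FPKM, 0.69) and Cdh2 (32.7 and 45.6 FPKM, 0.47), stood higher too. Of the later neurogenic and ventral genes of the list, Neurog1, Dbx1 and Nkx2-2 were at or below 0.1 FPKM at both stages and Neurog2 stood at 0.503 and 0.514 FPKM. The neuronal tubulin gene Tubb3, outside the list and named after its values were seen, stood at 5.55 FPKM at TS12 and 1.85 at TS13. Against the list, Fabp7, a radial glial lipid carrier, stood at 2.84 FPKM at TS12 and 0.0325 at TS13 (-1.90) and Crabp1 at 138 and 105 FPKM (-0.39). Crabp1, a retinoic acid binding protein, was the most abundant gene of the list per length, so the list's summed FPKM (317 and 366) understates how many members stood higher.

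**Figure D3:**
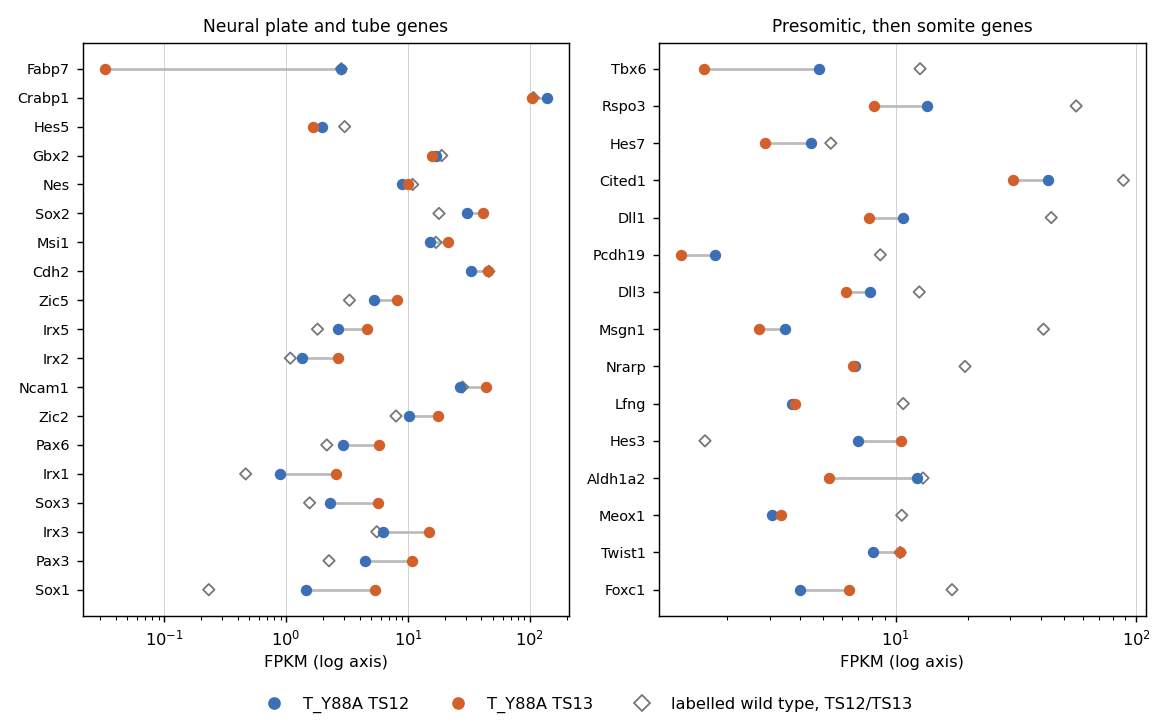
FPKM (log axis) of 19 of the 20 measured neural genes (left) and of 11 presomitic followed by 4 somite genes (right) at TS12 (blue) and TS13 (orange) of T_Y88A embryos, with the pooled library as an open diamond. Most neural genes lie to the right at TS13, while 10 of the 11 presomitic genes were highest in the pooled library, by differing amounts.

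Presomitic mesoderm genes stood mostly lower at TS13. Of 17 listed genes 11 were measured, and 1 was at least 2-fold lower and 0 higher. By any amount 9 stood lower and 2 higher (median -0.28), where 51.8% of all genes stood lower. Tbx6, which commits caudal progenitors to paraxial mesoderm, stood at 4.79 FPKM at TS12, 1.602 at TS13 and 12.6 in the pooled library (-1.15). Rspo3, a secreted amplifier of WNT signalling, stood at 13.5 FPKM at TS12, 8.11 at TS13 and 56.2 in the pooled library (-0.67). Cited1 stood at 42.8 and 30.9 FPKM (-0.46) and the NOTCH ligand Dll1 at 10.8 and 7.79 FPKM (-0.42). Msgn1, the factor that drives cells out of the progenitor pool, differed by -0.27. The gap to the pooled library was wider than the gap between stages for most of these genes, and it cannot be assigned a stage. Hes3 stood higher at TS13 and lowest in the pooled library, at 6.99 FPKM at TS12, 10.6 at TS13 and 1.62 in the pooled library.

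Somite genes were scarce, with 4 of 15 measured. Aldh1a2, the enzyme that makes retinoic acid in somites, was at least 2-fold lower at TS13 (12.3 and 5.29 FPKM, -1.08). Meox1 (3.06 and 3.34 FPKM), Twist1 (8.05 and 10.4) and Foxc1 (4.01 and 6.38, a difference of 0.56) stood higher. Tcf15 was below the filter at 0.548 and 0.346 FPKM, and Pax1, Pax9, Myf5 and Meox2 were all under 0.2 FPKM in both libraries. The segmentation clock and NOTCH list had no member past 2-fold, 8 of 15 higher and 7 lower (median 0.04). Within it, the clock gene Hes7 and the ligand gene Dll3 stood lower, by -0.50 and -0.28, while Hes1 stood higher (27.8 and 33.4 FPKM, 0.26). The receptor genes Notch2 and Notch3 stood higher, both by 0.34. Lfng and Nrarp, outputs of NOTCH, differed by 0.04 and -0.02.

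Hox genes followed their order along the body axis in part. Of 39 Hox genes 28 were measured. Paralog group 1 had 0 of 3 genes higher at TS13 (median -0.43). Group 9 had 4 of 4 higher (median 0.59). Groups 1 to 4 gave 7 of 12 higher (median 0.08) and groups 5 to 9 gave 14 of 15 (median 0.33), where 48.2% of all genes stood higher. Hoxc9 (8.73 FPKM at TS12, 23.8 at TS13 and 22.2 in the pooled library, 1.35) was the Hox gene past 2-fold. Hoxc6 (12.1 and 23.3 FPKM, 0.89) and Hoxa9 (37.6 and 70.1 FPKM, 0.88) were next, and Hoxb9 was the most abundant per length, at 102 and 125 FPKM. Hoxb6 stood against its neighbours at 20.6 and 12.6 FPKM (-0.67). Over the 28 genes, Spearman's rho between paralog group and log2 difference was 0.55, as a description: genes of 1 cluster are neighbours on 1 chromosome and all points come from the same 2 libraries. Within clusters rho was 0.73 for Hoxa (9 genes), 0.37 for Hoxb (9), 0.90 for Hoxc (5) and 0.30 for Hoxd (5). Of groups 10 to 13 only Hoxa10 was measured, at 1.43 and 1.80 FPKM.

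**Figure D4:**
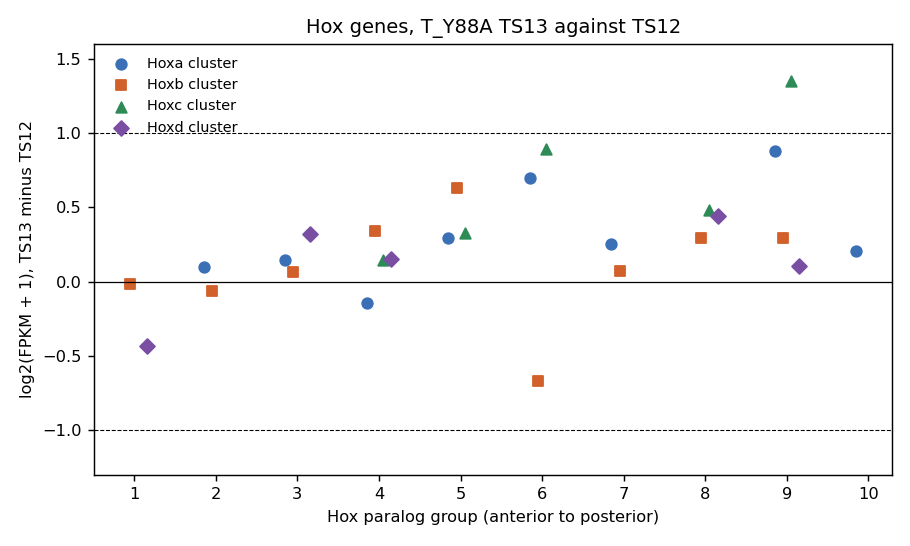
Log2(FPKM + 1) difference, TS13 minus TS12, of 27 of the 28 measured Hox genes in T_Y88A embryos by paralog group (x axis, anterior to posterior), with a marker for each cluster and dashed lines at 2-fold. Group 1 lies at or below 0, Hoxc9 lies above 2-fold, and Hoxb6 is the low point among the trunk groups.

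Signals that pattern the neural tube and the caudal end of the embryo were examined next. In the retinoic acid list 1 of 10 measured genes, Aldh1a2, was at least 2-fold lower, and 6 stood higher and 4 lower (median 0.08). The receptor gene Rara stood at 4.03 and 5.86 FPKM (0.45) and the retinol importer Stra6 at 7.77 and 11.2 FPKM (0.48). In the hedgehog list 1 of 9 was at least 2-fold higher. This was Gas1, a co-receptor for SHH that is itself held down by hedgehog signalling, at 5.52 FPKM at TS12 and 12.5 at TS13 (1.06). The related co-receptors Boc (3.09 and 6.40 FPKM, 0.85) and Cdon (3.83 and 6.74 FPKM, 0.68) stood higher with it. The pathway's target genes Ptch1 (17.3 and 17.0 FPKM) and Gli1 (2.25 and 1.90 FPKM) did not stand higher, and the ligand gene Shh was below the filter. Of the BMP and TGF-beta targets 5 of 15 stood higher and 10 lower (median -0.16, 0 past 2-fold), with Id3 at 73.3 and 49.8 FPKM (-0.55), Msx1 at 11.3 and 6.45 FPKM (-0.72) and Id2 on the other side at 89.3 and 110 FPKM (0.29).

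Lineages other than the caudal and neural ones differed too. Blood and endothelial genes gave 20 of 22 measured members higher, where 48.2% of all genes stood higher. At least 2-fold higher were 2, and 0 were at least 2-fold lower (median 0.59). The summed level of the list was 1474 FPKM at TS12, 2912 at TS13 and 8388 in the pooled library. The 4 globin genes made up 1381 and 2792 FPKM of this, and the other 18 genes summed to 91.8 and 118 FPKM (16 of 18 higher, median 0.39). Hba-x, an embryonic alpha-type globin, stood at 177 and 399 FPKM (1.17) and Hbb-bh1 at 716 and 1372 FPKM (0.94). Hba-a2 (1.13) has a near-identical copy, so its level is uncertain. Kdr, the VEGF receptor of endothelial progenitors, stood at 12.9 and 16.8 FPKM, and Lmo2 was lower at 16.1 and 10.8 FPKM (-0.54). No gene of this list was at 0 in either library. The part of blood and endothelial RNA in the differences of other lists was not tested.

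Surface ectoderm and epithelial genes stood mostly lower, 11 of 14 measured members, with Wnt6 at least 2-fold lower (9.17 and 3.90 FPKM, -1.05) and a median of -0.41. Among all genes 51.8% stood lower. The summed level of the list was 282 FPKM at TS12 and 190 at TS13. Cdh1, the adhesion protein of epithelia, stood at 6.12 and 3.06 FPKM (-0.81), Epcam at 13.4 and 7.42 FPKM (-0.77) and Krt8 at 103 and 61.0 FPKM (-0.75). Because Cdh1, Epcam and keratins also mark the epiblast and the node, these levels do not place the difference in a tissue. Of members more restricted to ectoderm, Dlx5 and Krt5 were under 1 FPKM at both stages, Trp63 stood at 0.446 and 1.35 FPKM and Dlx3 at 1.63 and 2.21 FPKM. The mesenchyme list, in which Cdh1 counts as a contrary gene, had 10 of 15 higher and 5 lower (median 0.23), with Fn1 at 29.8 and 45.2 FPKM (0.59).

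The remaining lineage lists held few expressed genes or no shared direction. Notochord and node genes had 4 of 13 measured, all lower (median -0.46), of which Tmem176a (2.995 and 1.23 FPKM) and Krt8 carried the size. Members below the filter went both ways. Shh (0.0478 and 0.390 FPKM) and Sox9 (0.154 and 0.472) stood higher, and Foxa2 (0.704 and 0.128) and Nodal (0.137 and 0) lower. Endoderm genes had 4 of 17 measured with a summed level of 16.5 and 14.0 FPKM. Lateral plate and cardiac genes were even, 6 of 13 higher and 7 lower (median -0.00; 7 and 6 on centring), with Isl1 the highest at 1.80 and 4.30 FPKM (0.92) and Nkx2-5 at 0 in both libraries. Neural crest genes gave 3 of 7 higher (median -0.01), and Sox10 and Foxd3, which define migrating crest, were under 0.1 FPKM. In the intermediate mesoderm 3 of 4 measured genes stood higher (median 0.42), a sign that turned once genes below the filter were counted. Of the visceral and extraembryonic list 2 of 13 were measured, and Afp, Apob and Ttr were near or below the filter. Xist was at 0.0790 and 0.0760 FPKM and the Y-linked Ddx3y at 18.0 and 13.9 FPKM, Eif2s3y at 31.0 and 25.6 and Uty at 12.2 and 13.04, so Y-linked RNA was present and Xist near 0 at both stages.

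**Figure D5:**
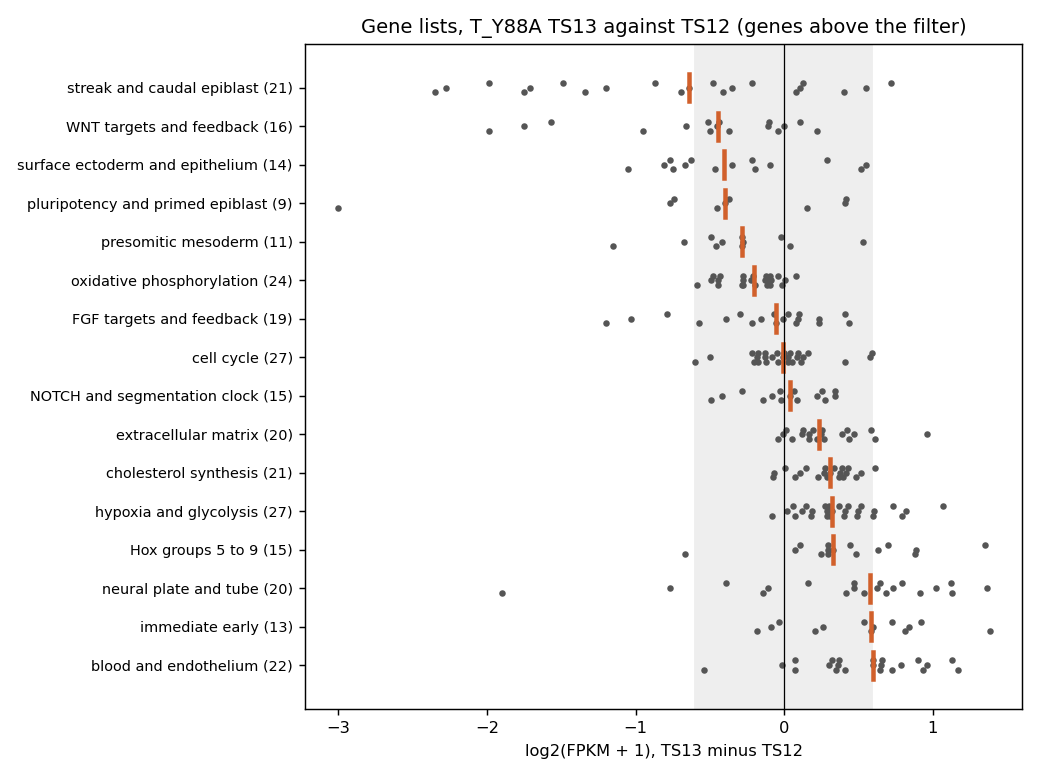
Log2(FPKM + 1) difference, TS13 minus TS12, of each measured gene (points) in 16 gene lists, with the number of genes in brackets and the list median as an orange bar. The grey band, from -0.60 to 0.59, holds the central 95% of all 11057 genes; the medians run from -0.64 for the streak list to 0.59 for the blood list.

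Metabolic genes differed in small, shared steps. Of the hypoxia and glycolysis genes 26 of 27 measured stood higher at TS13 and 1 lower, with 1 at least 2-fold higher and a median of 0.32. Adm, which encodes the secreted peptide adrenomedullin and is a hypoxia target, stood at 0.623 FPKM at TS12 and 2.402 at TS13 (1.07). Pfkfb3, which makes the activator of phosphofructokinase, stood at 3.88 and 7.59 FPKM (0.82), the mitochondrial gatekeeper Pdk1 at 22.5 and 32.2 FPKM (0.50) and the mitophagy gene Bnip3 at 104 and 134 FPKM (0.37). Among the abundant members, Aldoa stood at 515 and 682 FPKM (0.40), Gapdh at 945 and 1156 FPKM (0.29), Pgk1 at 858 and 1046 FPKM (0.28), Ldha at 1426 and 1549 FPKM (0.12) and the glucose transporter Slc2a1 at 423 and 400 FPKM (-0.08). Oxidative phosphorylation went the opposite way, with 22 of 24 genes lower (20 after quantile normalisation) and 0 past 2-fold (median -0.20), Ndufb3 of complex I by the most (55.2 and 36.5 FPKM, -0.59). Of all genes 51.8% stood lower. The list's genes had a median level of 137 FPKM, and all genes at 100 FPKM or more had a median difference of -0.09. The hypoxia list had a median level of 65.3 FPKM, and all genes at 20 to 100 FPKM a median difference of -0.04. The part of level in these list medians was not tested. Outside the lists, Ldhb, the lactate dehydrogenase subunit of oxidative tissues, stood at 35.9 and 17.1 FPKM (-1.03). Ldha and Ldhb, partners in 1 enzyme, thus stood on opposite sides of 0.

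The promoters of Ldha and Pgk1 are shown as examples, picked after the search among the abundant enzymes with several copies of ACGTG, the core of the hypoxia response element bound by HIF factors. The windows are the 250 bases before a RefSeq start, plus strand, GRCm38.p6, and capitals mark ACGTG or its reverse complement CACGT, which overlap where the letters read CACGTG. Ldha lies at chr7:46845554-46845803 and Pgk1 at chrX:106186850-106187099, with sites in Pgk1 at 150 and 131 bases before the start.
Ldha: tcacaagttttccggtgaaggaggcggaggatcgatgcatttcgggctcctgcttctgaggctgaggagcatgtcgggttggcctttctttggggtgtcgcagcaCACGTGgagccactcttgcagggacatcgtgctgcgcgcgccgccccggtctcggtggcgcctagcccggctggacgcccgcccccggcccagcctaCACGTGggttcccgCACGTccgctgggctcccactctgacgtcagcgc
Pgk1: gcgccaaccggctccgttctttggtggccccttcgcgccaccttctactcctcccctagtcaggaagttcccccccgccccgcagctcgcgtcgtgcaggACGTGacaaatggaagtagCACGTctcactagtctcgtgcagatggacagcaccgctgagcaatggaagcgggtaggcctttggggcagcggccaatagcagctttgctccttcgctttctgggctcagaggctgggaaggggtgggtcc
On both strands, ACGTG occurred in 16 of 26 hypoxia and glycolysis promoters and in 26.1% of the 8811 promoters of described genes. A second RefSeq start of Ldha had 0 copies in its window. Slc2a1, which stood slightly lower at TS13, was among the 16 genes with a match, and Adm and Pdk1 were not.

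Cholesterol synthesis genes gave 19 of 21 higher and 2 lower, with 0 past 2-fold (median 0.31), where 48.2% of all genes stood higher. Stard4, a sterol carrier (5.70 and 9.22 FPKM, 0.61), and Insig1, which restrains the sterol sensor (23.3 and 33.8 FPKM, 0.52), were the highest, and Hmgcs1, which commits acetyl units to the pathway, stood at 83.3 and 112 FPKM (0.42). The sterol response element TCACNCCAC occurred in 1 of 14 promoters of the list (Hmgcs1) and in 1.13% of all. Over all genes, the difference varied with the length of the gene on the chromosome: the median was -0.08 in the shortest of 4 equal groups of genes (median span 4.80 kb) and 0.10 in the longest (99.8 kb). The oxidative phosphorylation list had a median span of 8.51 kb, the cholesterol list 17.9 kb and the hypoxia list 18.7 kb, and the group of all genes around 15.5 kb had a median of -0.06. Extracellular matrix genes (18 of 20 higher, median 0.24) had a span of 81.2 kb, in the range of the longest group. The part of gene length in these list medians was not tested.

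Cell cycle, p53 and stress response lists had medians near 0, and immediate early genes stood mostly higher. Cell cycle genes gave 12 of 27 higher and 15 lower (median -0.01), a split that turned to 14 and 13 on centring and 15 and 12 on quantile normalisation, with Mki67 at 49.3 and 74.2 FPKM (0.58), the CDK inhibitor gene Cdkn1c at 23.6 and 36.0 FPKM (0.59) and Cdkn1a at 5.19 and 3.08 FPKM (-0.60). p53 targets were even, 9 higher and 9 lower (10 and 8 on either rescaling), with Phlda3 at least 2-fold lower (8.91 and 3.21 FPKM, -1.24). Heat shock genes gave 2 of 10 higher and 8 lower (median -0.10), but 4 higher and 5 lower after quantile normalisation, and the integrated stress response 9 higher and 9 lower, with Ddit3 at 1.68 and 3.78 FPKM (0.83). Immediate early genes, which are induced within minutes of handling or signalling, gave 10 of 13 measured higher and 3 lower with a median of 0.58 (0.17 with no filter). Ier3 was at least 2-fold higher (0.497 and 2.91 FPKM, 1.38) and Atf3 (0.822 and 2.46 FPKM) and Btg2 (3.49 and 6.91 FPKM) were below that size. Fos and Egr1 were below 0.5 FPKM in both libraries. The part of handling in these values was not tested.

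Most chromatin regulators stood slightly higher, where 48.2% of all genes stood higher. DNA methylation genes gave 7 of 8 higher (median 0.32), Tet1 the most (3.49 and 5.97 FPKM, 0.63), with Dnmt3b as the exception. Histone acetyltransferase, deacetylase, Polycomb and trithorax genes gave 19 of 26 higher (median 0.08, 0 past 2-fold), among them the acetyltransferase genes Ep300 (11.8 and 14.8 FPKM, 0.31) and Crebbp (12.8 and 16.9 FPKM, 0.38). The DNA methylation genes had a median span of 67.1 kb. LIN28 and let-7 target genes gave 7 of 11 higher and 4 lower (median 0.15; 9 and 2 after quantile normalisation), with Lin28a lower.

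Imprinted genes gave 13 of 18 higher and 5 lower (median 0.22), where 48.2% of all genes stood higher. Plagl1, a zinc finger regulator of an imprinted growth network, was at least 2-fold higher (2.96 and 7.999 FPKM, 1.19). Igf2, the fetal growth factor, stood at 207 and 304 FPKM (0.55), and Phlda2 stood lower at 72.2 and 38.3 FPKM (-0.90). Airn, the noncoding RNA antisense to Igf2r, stood at 3.61 and 8.67 FPKM (1.07) and Igf2r at 43.8 and 61.4 FPKM (0.48). The sources used here do not say if reads were counted by strand, so where Airn and Igf2r overlap their reads cannot be told apart.

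Outside the lists lay 38 of the 49 genes at least 2-fold higher and 49 of the 65 at least 2-fold lower. Among the 15 highest with a mean of 5 FPKM or more, Mt1, a metallothionein that binds zinc and copper, stood at 2.41 FPKM at TS12 and 13.4 at TS13 (2.08). Its neighbour Mt2, named after its values were seen, stood at 1.49 and 4.76 FPKM (1.21). Igfbp5, a binding protein of insulin-like growth factors, stood at 7.16 and 30.0 FPKM (1.92) and Stc2, a secreted glycoprotein that also acts on that system, at 10.1 and 25.6 FPKM (1.26). The group also held Nrn1, a neurite growth factor, at 6.35 and 18.1 FPKM (1.38), the axon guidance gene Sema3a at 17.4 and 33.8 FPKM (0.92) and Adam23 at 3.71 and 8.74 FPKM (1.05). Also in it were Col2a1, the fibrillar collagen of notochord and cartilage (3.26 and 6.96 FPKM, 0.90), and Slc4a1, the anion exchanger of red cells (3.69 and 7.77 FPKM, 0.90), which stood at 37.0 FPKM in the pooled library with the globins. Nin (9.43 and 25.6 FPKM, 1.35), Dock9, Sparcl1, Rprm and Pgm2 completed the group with Airn, their differences between 1.03 and 1.35. Amd1 had the largest value, 8.39 and 43.7 FPKM (2.25), but stood at 0.0110 FPKM in the pooled library and has near-identical copies, so it is reported as uncertain. Nr2f2 and Gdf10, named after their values were seen, had differences of 1.24 and 1.62.

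Among the 15 lowest, Grsf1, a mitochondrial RNA-binding protein, was by far the most abundant, at 398 FPKM at TS12, 138 at TS13 and 201 in the pooled library (-1.52). Fgfbp3, a carrier that releases FGF ligands from matrix, stood at 12.05 and 3.21 FPKM (-1.63). Wfdc2, a secreted protease inhibitor, stood at 18.2 and 6.92 FPKM (-1.28), and Lad1, of basement membranes, was also in this group (11.04 and 4.60 FPKM, -1.10). Nt5e, the ectoenzyme that makes adenosine, stood at 10.05 and 3.90 FPKM (-1.17). Msx1as stood at 44.1 and 22.3 FPKM (-0.96) beside Msx1, and its reads cannot be separated from those of Msx1 where they overlap. Rnaset2a, Tmem141, Lxn, Lsp1, Nhej1, Car4 and Sac3d1 made up the rest, from -1.19 to -0.96. G3bp2 was listed at 0 at TS12 and at 155 FPKM at TS13, and Hnrnpd at 27.3 FPKM at TS12 and 0 at TS13. As both are RNA-binding proteins of nearly every cell, a 0 may be a failed estimate and no fold is given. Spink3 was listed at 0 at TS13 and at 2.11 FPKM at TS12.

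The pooled library lay between the T_Y88A libraries for 32 of the 49 genes at least 2-fold higher (65.3%) and 43 of the 65 lower (66.2%), where it did so for 25.2% of all genes. Genes chosen for a wide gap leave more room between the libraries, so these shares are descriptions. Pou5f1, Fst, Sp5 and Notum were of this kind. Cdx1 and Wnt8a stood in it at or below the TS13 level, and Sox1 below the TS12 level. In the 2 libraries of Day 4 cultures, 1 labelled T_wt and 1 T_Y88A, Wnt3a was nearly absent (0.00844 and 0 FPKM), whereas Pou5f1 stood at 246 and 303 FPKM, above both embryo stages.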

How the data were processed

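RNA of flow-sorted T-positive cells was sequenced from ScriptSeq v2 low-input libraries, per the labels' protocols. The authors deposited 1 table of FPKM for 5 libraries; per the submitters' processing notes the named tools were bedtools 2.23.0, Cufflinks 2.1.1 and TopHat2 2.0.8, the build was mm10, and no roles were given. All 5 columns were matched to samples by label (0 unused); the header of the pooled wild-type column starts with the same letters as the T_Y88A headers, so its identity rests on its label. The 7 chromatin samples were not analysed here.

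From the deposited FPKM, log2(FPKM + 1) at TS13 minus TS12 was computed with Python 3.11.15, pandas 2.3.3 and numpy 2.4.6. Of 23421 symbols, 21649 matched a current RefSeq symbol (GRCm38.p6), 1597 a synonym and 175 none. With 1 library a stage there were 0 residual degrees of freedom, no test and no interval; FPKM keep no counts. Genes named are, per list, those past 2-fold and up to 6 others (further members named, most in the streak and neural lists, were chosen after their values were seen), and outside the 38 lists the 15 highest and 15 lowest with a mean of 5 FPKM or more, above 0.1 in both libraries, with no predicted, small RNA, histone, ribosomal or pseudogene symbols. Members and lists were chosen with earlier results of these data known, so list shares beside the share of all genes are descriptions. Some genes near the floor in 1 library, such as Fgf4, Fabp7, Adm and Ier3, passed the filter only through the other library. All measured members are counted, and most are not reported here by name. The 12 motifs were searched in the 250 bases before RefSeq starts, for the measured genes that had a promoter sequence. The computation was tested on simulated data. Alternatives were the pseudocount, the filter, centring, quantile normalisation, small RNA genes, values of 0 and a 1.5-fold size.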

Additional observations from a re-analysis of the deposited data

How the results depend on the processing

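Of the genes at least 2-fold apart, 49 higher and 65 lower at TS13, the counts became 127 and 137 with a pseudocount of 0.1, 23 and 30 with a mean of 5 FPKM or more, and 288 and 301 at 1.5-fold. The pseudocount draws genes near 0 less towards 0, a higher filter leaves fewer genes, and a smaller size takes in more. With no filter they were 53 and 76, with small RNA genes kept 58 and 82, and without genes listed at 0 they were 48 and 63. Centring on the median left 49 of the same 49 genes and 64 of the same 65, and quantile normalisation 49 and 63.

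In 258 of 264 recomputations, a list median moved by less than the SD across genes and was not counted as reversed. Reversed meant a turned sign in a median of at least 0.25 in size. Of the rest, 2 were reversed and 4 moved by the SD or more. That SD, 0.31, was larger than many of the list medians, so a median could fall to 0 and still be among the 258. With no filter the intermediate mesoderm median turned from 0.42 to -0.0062 and the sex-linked median from -0.27 to 0.0081, as more genes near 0 entered. Counts of list members past 2-fold stayed within 1.5 times in 552 of 608. Many of these counts were 0 in the main setting, so this share says little about stability. Of 57 single genes recomputed, 9 (Adm, Fabp7, Fgf4, Fst, Ier3, Mt1, Sox1, Tbx6 and Wnt3a) moved by the SD across genes (0.31) or more with a pseudocount of 0.1. A smaller pseudocount moves every difference further from 0 and cannot turn its sign. No sign turned under centring or quantile normalisation either, but the 57 genes were chosen for large differences, so this says little about stability. No paired analysis was possible because each stage has 1 library and the result comes from no test; leaving out a library leaves no comparison. Depth limits low genes most: at 1 to 5 FPKM the central 95% of genes ran from -0.76 to 0.73.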
